A study of Mus musculus with 24 samples.

Results

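Antigen-specific IgG1 memory B cells, sorted from spleens 40 days after immunization, were compared with naive follicular B cells on genome-wide expression arrays, to describe how persisting memory cells differ from the naive cells of the follicle. The members were chosen by their sample labels alone: 3 arrays of day 40 memory B cells and 3 of unstimulated follicular B cells, 6 of the 24 arrays of the series. All mice were female C57BL/6, and no genotype other than the strain is given. Follicular B cells came from spleens of mice 8 to 10 weeks old. They were enriched by magnetic removal of T cells (CD3, CD5, CD90), of myeloid and erythroid cells (Gr-1, CD11b, a macrophage antigen, TER119) and of cells with CD43, CD95 or CD138, and then sorted as B220+ AA4.1- CD21int CD23+. Memory B cells came from mice that were 8 to 10 weeks old when given the hapten NP on a carrier protein (written CG or CGG in the labels) in alum. Spleen cells of these mice were stripped of cells with IgD or IgM, of T cells (CD3, CD5, CD90), of NK cells (DX5, NK1.1) and of myeloid and erythroid cells (Gr1, a macrophage antigen, TER119). Those that bound the related hapten NIP and were B220+ IgG1+ CD38+ PNA- were sorted. As memory cells were taken 40 days after immunization, their mice were older at sorting than the follicular mice. The labels record no immunized, hapten-negative or alum-only control. Immunization, isotype, antigen binding, cell stage, depletion steps and age at sorting thus differ together between the groups and cannot be told apart. Whether samples of 1 group are separate animals, pools or repeats is not given either, so the p-values measure only the spread between these samples, which may be technical.

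A further 3 groups of 3 arrays served as points of reference. Memory B cells of day 7 were sorted as those of day 40 were. Time since immunization and age at sorting differ together between these days and cannot be told apart. Marginal zone B cells are naive cells at the edge of the follicle. The stimulated group is follicular B cells kept for 6 h in culture with F(ab')2 antibody to IgM at 10 µg/ml and antibody to CD40 at 2 µg/ml. No follicular cells cultured without these antibodies were among the arrays used, so culture and stimulation cannot be told apart in that group. Mice of the marginal zone and stimulated groups were 8 to 10 weeks old by their labels. Age at sorting thus also differs between these groups and day 40 memory cells and cannot be told apart from the other differences.

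A follicular B cell recirculates through spleen and lymph nodes in a resting state until its receptor binds antigen. With help from T cells, some of its descendants switch to IgG, mutate their antibody genes in germinal centers and persist as memory B cells. On a second encounter with antigen these cells divide, re-enter germinal centers or become antibody-secreting plasma cells faster than naive cells do. In mice, surface CD73, CD80 and PD-L2 mark subsets of memory B cells.

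Values are deposited log2 signals, with a floor of 2.15 at which 39.33% to 43.14% of probe sets of the follicular arrays lay and 41.42% to 42.36% of those of the memory arrays. Array medians were 2.41 to 2.56 in follicular and 2.41 to 2.42 in memory cells. Across genes, which are not independent replicates, arrays of 1 group correlated at r = 0.9889 to 0.998 in follicular and 0.9933 to 0.9958 in memory cells. Follicular replicate 1 stood slightly apart, with the highest median, the fewest values at the floor and the lowest correlations. The difference between 3' and 5' control probe sets, a sign of RNA quality, was 1.48 to 1.78 for Gapdh in follicular and 0.88 to 1.55 in memory cells, and 0.85 to 1.37 and 0.88 to 1.17 for Actb. The part of RNA quality in the results was not tested. With 3 arrays a group, precision is limited by their number.

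Of 11208 genes tested, 810 were higher and 734 lower in day 40 memory cells, at a Benjamini-Hochberg adjusted p under 0.05 and a log2 change of at least 1, which is called a rise or a fall from here on. These were 7.23% and 6.55% of the genes tested, and the median change of all genes was -0.043. The shares are the reference for each list count below, and no list was tested as a whole. Rises were larger than falls: 176 rises but 22 falls reached a log2 change of 4. The median rise was 2.23 and the median fall -1.58. For 791 of the 810 rises and 704 of the 734 falls, the arrays of the 2 groups did not overlap, as was so for 18.5% (memory above) and 22% (memory below) of all genes tested. In 91 of the rises the follicular cells lay at background, meaning a signal no higher than the median of the array on all 3 arrays. For such genes a lower bound is given, taken against the higher of the array median and the measured signal. In 35 of the falls the memory cells lay at background. Because the arrays measure bulk RNA, fewer cells expressing a gene and less RNA of it per cell cannot be told apart.

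The largest rise was that of Nfil3 (chromosome 13). This basic leucine zipper repressor, which acts in cytokine responses in other lymphocytes, read 13.01, 13.29 and 13.18 in memory and 2.41, 2.60 and 2.16 in follicular cells. Its change was 10.77 ± 0.29 (adjusted p = 2.81e-15). Parm1 (chromosome 5), a mucin-like membrane protein, read 13.43, 12.88 and 13.20 in memory and 2.57, 2.44 and 2.44 in follicular cells, a change of 10.69 ± 0.16 (adjusted p = 7.64e-19). The groups did not overlap in either gene, and the follicular arrays lay near the floor. Atp11a, a phospholipid flippase, read 10.85 to 11.02 on the 3 memory arrays (log2 change at least 8.49 (fitted 8.81 ± 0.22)), and all 3 follicular arrays were at the floor. Tent5c, a poly(A) polymerase that stabilises messenger RNA in plasma cells, read 11.88, 12.11 and 11.86 in memory and 2.30, 2.45 and 2.20 in follicular cells (change 9.63 ± 0.22), with a mean of 11.88 in stimulated follicular cells. Slpi, a secreted protease inhibitor, read 11.72, 11.77 and 11.13 in memory and 3.26, 3.26 and 2.93 in follicular cells (change 8.39 ± 0.20) and stood at a mean of 13.49 at day 7. Sspn, a component of the dystrophin complex, read 11.95, 11.35 and 11.96 in memory and 3.07, 4.36 and 3.23 in follicular cells (change 8.20 ± 0.36). Grasp, a scaffold of receptor trafficking, read 12.24, 11.68 and 12.09 in memory and 2.73, 3.92 and 4.32 in follicular cells (change 8.35 ± 0.59), while its other bright probe sets gave changes of 2.81 to 6.58. For Lmna, which encodes lamin A and C of the nuclear envelope, the probe sets disagreed: the brightest gave at least 8.57 (fitted 8.83 ± 0.44) and 3 other bright ones 0.10 to 7.46, so its call depends on the probe set.

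**Figure D1:**
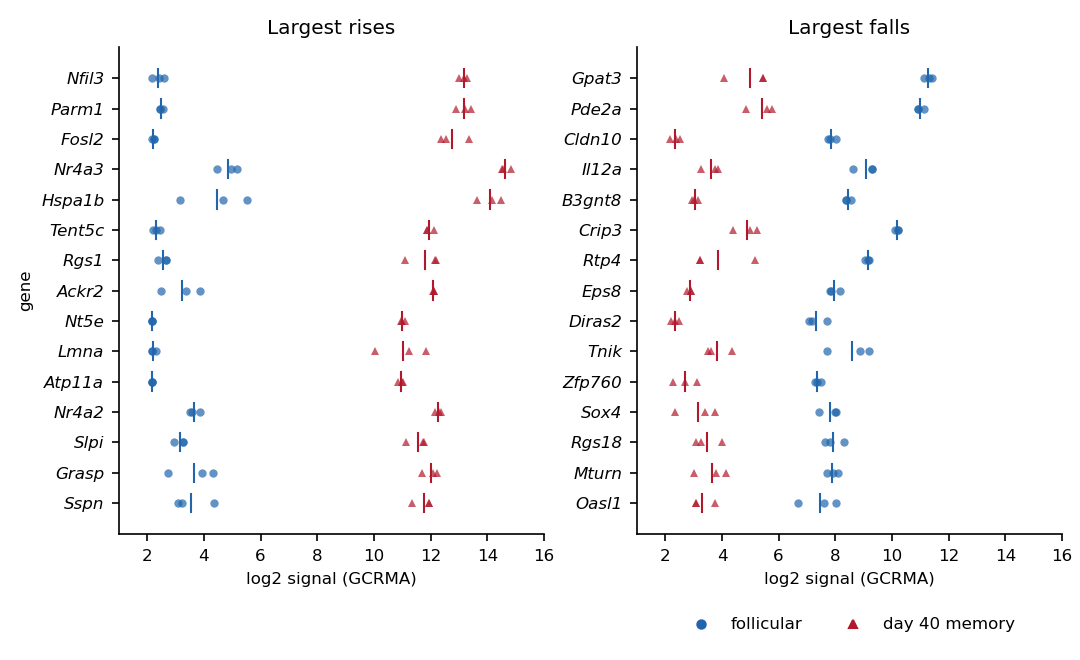
Log2 signal (horizontal axis) of the 15 genes with the largest rises (left) and the 15 with the largest falls (right) in day 40 memory cells (triangles) against follicular cells (circles). Each point is 1 array and each vertical bar the mean of 3. Genes were picked for a lack of overlap between the groups, and Nfil3, Parm1 and Fosl2 rise from near the floor of 2.15 to above 12.

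The largest fall was that of Gpat3, an acyltransferase of triglyceride synthesis, which read 4.07, 5.44 and 5.45 in memory and 11.13, 11.30 and 11.43 in follicular cells (change -6.30 ± 0.50, adjusted p = 2.54e-08). Its mean was 9.55 in day 7 memory cells, so the larger part of its fall was not seen at that day. Il12a encodes the p35 subunit of the cytokines IL-12 and IL-35. It read 3.25, 3.87 and 3.77 in memory and 8.63, 9.29 and 9.29 in follicular cells, a change of -5.44 ± 0.42 (adjusted p = 1.69e-08), with means of 3.68 at day 7 and 7.48 in marginal zone cells. Sox4, a transcription factor of early B cell development, read 2.35, 3.39 and 3.77 in memory and 7.43, 8.00 and 8.03 in follicular cells (change -4.65 ± 0.46). Tnik, a kinase of the Wnt and JNK pathways, read 3.63, 4.34 and 3.52 in memory and 7.71, 9.20 and 8.88 in follicular cells (change -4.77 ± 0.42), and its other bright probe sets gave changes of -4.35 to -1.15. Both genes were lower on each memory array than on each follicular array. The remaining large falls were those of the tight junction protein Cldn10 (-5.52), the glycosyltransferase B3gnt8 (-5.40), the LIM protein Crip3 (-5.31), the signalling adaptor Eps8 (-5.07), the small GTPase Diras2 (-4.97), Zfp760 (-4.67) and Mturn (-4.25).

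Early response genes were higher as a group. They are transcribed within minutes to hours of a receptor signal, do not need new protein for it, and include AP-1 subunits, nuclear receptors of the Nr4a family and Egr zinc finger factors. Of 28 tested, 23 rose and 0 fell, against 7.23% and 6.55% of all genes, with a median change of 2.23. The other 5, Ier3, Btg1, Ier5, Zfp36 and Jund, changed by 0.00 to 0.34. Leaving out any of the 6 arrays kept the count of rises at 21 or 22.

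The nuclear receptor Nr4a3 read 14.82, 14.54 and 14.53 in memory and 4.47, 5.17 and 4.94 in follicular cells (change 9.77 ± 0.26, adjusted p = 2.81e-15). Nr4a2 read 12.35, 12.15 and 12.28 in memory and 3.87, 3.51 and 3.57 in follicular cells (change 8.61 ± 0.29) and Nr4a1, which reports antigen receptor signalling in reporter mice, 14.18, 14.29 and 14.47 in memory and 8.01, 9.06 and 8.71 in follicular cells (change 5.72 ± 0.36). All 3 receptors were higher on each memory array without overlap, and Nr4a1 had the highest follicular signal of them. Among AP-1 family genes, Fosl2 read 13.34, 12.38 and 12.55 in memory and 2.23, 2.15 and 2.23 in follicular cells, a change of at least 10.29 (fitted 10.55 ± 0.63). Fosb read 11.62, 12.63 and 12.64 in memory and 3.48, 4.01 and 4.88 in follicular cells (change 8.17 ± 1.12, adjusted p = 2.31e-05), and the related stress factor Atf3 10.05, 9.75 and 9.84 in memory and 2.68, 2.59 and 2.59 in follicular cells (change 7.26 ± 0.72). Memory replicate 1 was the lowest of its group for Fosb and the highest for Fosl2 and Atf3. Rgs1, which dampens chemokine receptor signalling, read 11.09, 12.18 and 12.16 in memory and 2.39, 2.66 and 2.66 in follicular cells (change 9.24 ± 0.36). The other 15 genes rose by 1.06 to 5.66, among them Maff, Junb, Myc, Egr2, Fos and Cd69, and the call of Btg2, the smallest of these, ended without any 1 of 4 arrays (follicular replicates 2 and 3, memory replicates 1 and 2).

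Follicular cells stimulated for 6 h had the same list only in part. Against them, 19 of the 28 genes were higher and 1, Gadd45b, lower in day 40 memory cells, where 23.7% and 19.5% of all genes were called. For Nr4a3 the stimulated mean was 13.57, close to memory cells (difference 1.06 ± 0.26), for Nr4a1 12.61 (difference 1.70 ± 0.36) and for Rgs1 11.26. Fosb instead read 2.15 after stimulation, the floor of the array on each replicate, so it was lower there than in unstimulated follicular cells. Atf3 had a stimulated mean of 3.21, and Nfil3 one of 4.20. Of these genes, stimulated cells thus approached memory cells in Nr4a3, Nr4a1 and Rgs1 but not in Fosb, Atf3 or Nfil3. Nr4a2 lay between, with a stimulated mean of 9.84 against 12.26 in memory cells. Other genes near the memory mean after stimulation were Maff (8.62 against 8.74), Egr3 (12.94 against 13.48), Egr2 (14.23 against 13.87) and Myc (13.77 against 13.26). Marginal zone cells lay below memory cells in 22 of the 28 genes and above in 0, where 7.21% and 10.2% of all genes were called. In day 7 memory cells 2 of the 28 were lower than at day 40, Junb and Egr3, and 0 higher, where 2.74% and 2.28% were called. The 4 comparisons share the day 40 arrays, so they are not independent. The mean level of the list was 12.45 to 12.82 in the day 40 arrays, 11.79 to 12.18 at day 7, 9.78 to 10.13 in stimulated, 8.67 to 9.05 in follicular and 8.32 to 9.08 in marginal zone arrays. In germinal center cells of days 7 and 40 and plasma cells of day 7, Rgs1 had means of 14.09, 14.03 and 12.09. In the same order Nfil3 had 10.56, 10.57 and 10.76, and Fosb 9.82, 11.05 and 12.42. Fosl2 was lower there (2.33, 5.65 and 8.58), and Atf3 was low in germinal center cells only (5.07, 4.26 and 10.34).

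**Figure D2:**
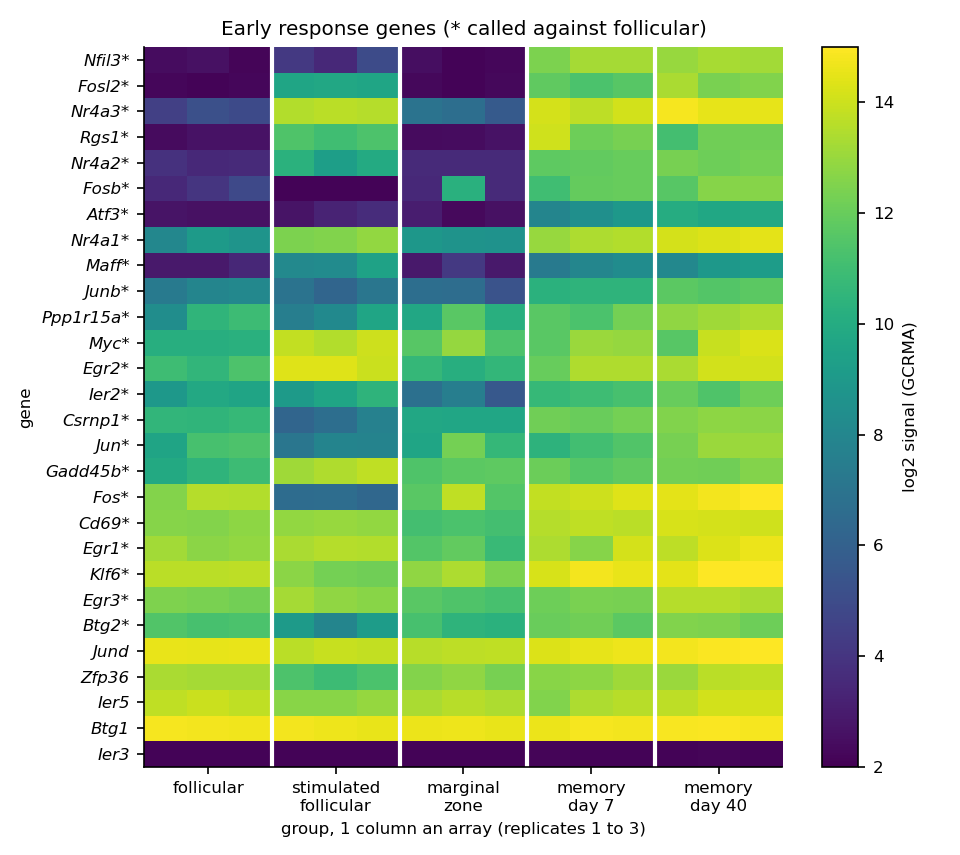
Log2 signal (colour) of 28 early response genes, ordered by their change between day 40 memory and follicular cells, on 15 arrays of 5 groups. An asterisk marks a gene called in that comparison. Nr4a3 and Rgs1 are high in stimulated follicular and memory cells, and Fosb is at the floor of 2.15 in stimulated cells.

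Promoters of early response genes carry short elements bound by factors that signalling activates without new protein: the cAMP response element (TGACGTCA), the AP-1 site (TGANTCA) and the CArG box bound by serum response factor. These were searched on both strands in RefSeq promoters of the GRCm38.p6 assembly, 250 bases before to 50 after each start, and no match to the first element contains the second. Of the 23 genes that rose, 17 were in the table. The cAMP response element was in 3 of them (17.6%), Btg2, Maff and Ppp1r15a, against 3.68% of 9102 tested genes in the table. The AP-1 site was in 1 (5.88%, against 5.99%) and the CArG box in 1, Egr2 (5.88%, against 1.64%). A match is a description of letters and not of binding. Sequences of 2 promoters with the element are shown as examples, with the element in capitals, from the base 250 before the start of transcription to the base before it. Ppp1r15a, which encodes the stress phosphatase subunit GADD34, is on the minus strand at chr7:45526269-45526518, with the element 12 to 5 bases before the start, and Btg2, an antiproliferative factor, on the minus strand at chr1:134079156-134079405, with the element 166 to 159 bases before it.
Ppp1r15a: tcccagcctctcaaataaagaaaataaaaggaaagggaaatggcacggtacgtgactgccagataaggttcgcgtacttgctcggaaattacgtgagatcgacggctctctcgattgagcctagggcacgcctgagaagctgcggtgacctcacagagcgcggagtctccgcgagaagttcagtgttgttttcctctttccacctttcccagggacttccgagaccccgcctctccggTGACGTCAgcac
Btg2: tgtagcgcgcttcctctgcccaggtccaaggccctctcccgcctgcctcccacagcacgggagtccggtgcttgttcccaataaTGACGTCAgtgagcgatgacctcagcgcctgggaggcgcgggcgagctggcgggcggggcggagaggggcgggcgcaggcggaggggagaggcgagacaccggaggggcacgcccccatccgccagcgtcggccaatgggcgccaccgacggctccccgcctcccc

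Heat shock chaperones fold proteins and are induced by heat, proteotoxic stress and handling of cells. Of 13 tested, 6 rose (46.2%) and 0 fell (median change 0.94). Hspa1b, the inducible HSP70, read 13.65, 14.18 and 14.49 in memory and 3.16, 5.51 and 4.68 in follicular cells (change 9.66 ± 0.84), and its near-identical neighbour Hspa1a 7.42, 9.43 and 10.38 in memory and 2.15 on each array in follicular cells (change at least 6.61 (fitted 6.93 ± 1.10)). Probe sets of these copies can share signal. The cochaperone Bag3 changed by at least 2.56 (fitted 2.80 ± 0.50), Dnajb4 by 2.53 ± 0.21, Dnajb1 by 1.51 ± 0.30 and Hsph1 by 1.03 ± 0.26. The Hsph1 call ended without follicular replicate 1, memory replicate 2 or memory replicate 3. The stimulated mean was 7.67 for Hspa1b and 2.31 for Hspa1a. High levels were not particular to day 40 memory cells. Hspa1b had means of 13.99 and 13.87 in germinal center cells of days 7 and 40 and 12.90 in plasma cells of day 7. For Hspa1a these means were 9.41, 8.99 and 7.73. In day 7 memory cells Hspa1b had a mean of 12.16 and Hspa1a of 5.72. Whether preparation of the cells played a part in the early response and heat shock genes was not tested.

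NF-kB is a family of factors downstream of the antigen receptor and CD40, and of 14 of its subunits and inhibitors 3 rose (21.4%) and 0 fell. These were the subunit Rel (12.64, 13.29 and 13.44 in memory and 9.33, 9.72 and 10.01 in follicular cells; change 3.44 ± 0.25), the nuclear inhibitor Nfkbid (13.75, 13.87 and 14.14 in memory and 10.84, 11.19 and 11.02 in follicular cells; change 2.90 ± 0.29) and the deubiquitinase Tnfaip3 (change 2.09 ± 0.32). The other 11 changed by -0.67 to 0.67. Dual specificity phosphatases switch off MAP kinases, and of 13 genes 5 rose (38.5%) and 2 fell (15.4%). Dusp5 read 12.23, 11.43 and 11.68 in memory and 5.32, 8.30 and 8.14 in follicular cells (change 4.53 ± 0.62) and Dusp1 14.49, 14.88 and 14.94 in memory and 11.53, 11.93 and 12.21 in follicular cells (change 2.88 ± 0.48). Dusp16 (2.31), Dusp10 (1.39) and Dusp3 (1.21) also rose, the call of Dusp10 ending without any of follicular replicate 2 and memory replicates 2 and 3, and that of Dusp3 without memory replicate 1. Dusp6, a phosphatase of ERK, went the other way at 8.15, 9.75 and 10.63 in memory and 11.83, 11.69 and 11.88 in follicular cells (change -2.29 ± 0.57). Dusp7 was lower by a change of -1.07 ± 0.31, a call that ended without follicular replicate 3 or memory replicate 2.

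**Figure D3:**
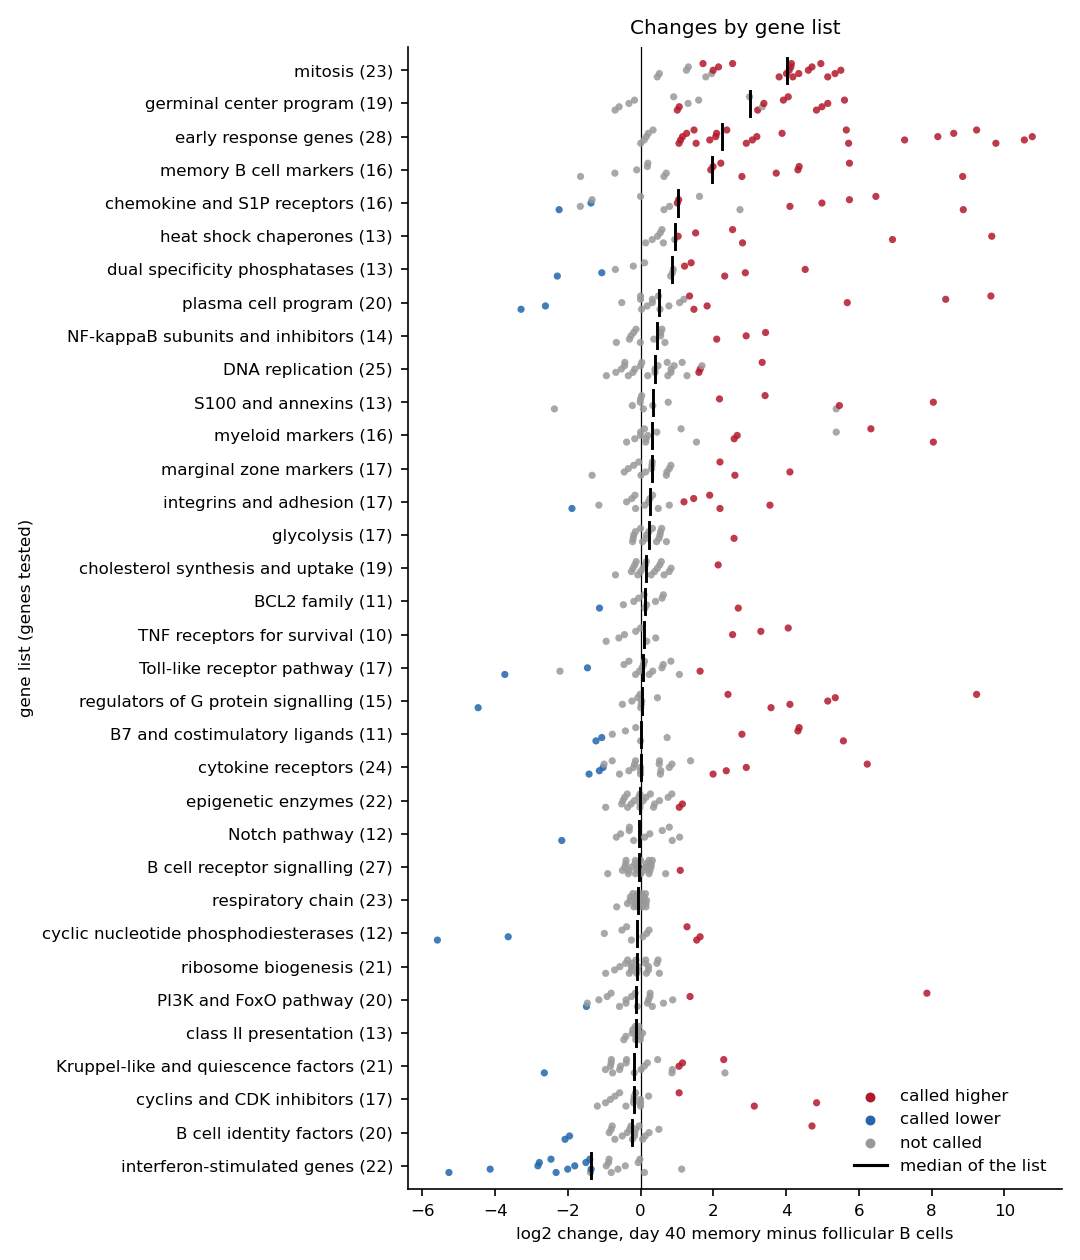
Log2 change between day 40 memory and follicular B cells (horizontal axis) of each tested gene of the lists with at least 10 tested genes, ordered by median. Points are genes, coloured by call, and the black bar is the median of the list. Mitosis, the germinal center program and early response genes have the highest medians (4.01, 3.0 and 2.23), and interferon-stimulated genes the lowest (-1.37).

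Memory B cell markers were higher in 9 of 16 genes tested (56.25%) and lower in 0 (median change 1.96). With genes required to be above the 75th percentile 5 rose, and 1 fell under each of 5 alternatives (an offset of 16, a trended prior, array weights, only the compared groups and the replicate block). This list was drawn up from memory B cell studies and is no independent test of the label. Nt5e, the ectoenzyme CD73, read 10.95, 10.99 and 11.08 in memory and 2.15 on each array in follicular cells, a change of at least 8.54 (fitted 8.86 ± 0.33). The chemokine receptor Cxcr3 read 7.79, 9.06 and 8.35 in memory and 2.40, 2.78 and 2.79 in follicular cells (change 5.74 ± 0.25). Cd80 read 5.99, 6.43 and 7.47 in memory and 2.39, 2.25 and 2.27 in follicular cells (change at least 4.17 (fitted 4.33 ± 0.47)), and Pdcd1lg2, which encodes PD-L2, 11.25, 11.22 and 11.38 in memory and 8.03, 8.85 and 8.61 in follicular cells (change 2.79 ± 0.50). All 3 surface markers used to divide mouse memory B cells were thus higher without overlap. Zbtb32, a repressor that limits recall responses in mice, read 6.46, 5.12 and 6.20 in memory and 2.22, 2.16 and 2.21 in follicular cells (change at least 3.46 (fitted 3.73 ± 0.35)) and had a day 7 mean of 9.77. Zbtb20, a related zinc finger factor, read 14.22, 14.23 and 14.21 in memory and 11.78, 12.02 and 12.24 in follicular cells (change 2.21 ± 0.21). The interleukin-9 receptor Il9r changed by 1.99 ± 0.36, a call that ended with an offset of 16 before the logarithm, and the T-box factor Tbx21 by 1.93. The 7 markers not called changed by -1.65 to 0.71. Hhex, the lowest, read 11.07, 11.64 and 12.05 in memory and 13.35, 13.17 and 13.19 in follicular cells. Its groups did not overlap, but its change of -1.65 ± 0.61 did not pass (adjusted p = 0.0605). Bach2 changed by -0.71 ± 0.36. Against marginal zone cells 11 of the 16 were higher and 1, Il9r, lower, and against stimulated follicular cells 12 and 0. Of all genes 7.21% were higher and 10.2% lower against marginal zone cells, and 23.7% and 19.5% against stimulated cells.

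Costimulatory genes split between rises and falls. Of 11 genes 4 rose (36.4%) and 2 fell (18.2%). The list holds B7 and TNF family ligands and also Cd40, Slamf1 and Cd200, with Cd40 on the TNF receptor list below as well. Cd86, which engages CD28 on T cells, read 13.80, 12.84 and 12.81 in memory and 8.20, 9.12 and 9.05 in follicular cells (change 4.36 ± 0.28), and Tnfsf9, the ligand of 4-1BB, 8.59, 8.43 and 8.76 in memory and 2.15, 3.54 and 3.36 in follicular cells (change 5.58 ± 0.44). Both were lower in stimulated follicular cells, at means of 11.03 and 2.15. Icosl, the ligand of ICOS on helper T cells, read 12.92, 13.14 and 13.35 in memory and 14.38, 14.30 and 14.41 in follicular cells (change -1.23 ± 0.31). Cd200 changed by -1.07 ± 0.31, a call that ended without follicular replicate 3 or memory replicate 1, which left 1 fall. Of 10 TNF receptors and adaptors 3 rose and 0 fell: the death receptor Fas read 11.58, 11.76 and 11.81 in memory and 7.04, 7.96 and 7.97 in follicular cells (change 4.06 ± 0.53), Tnfrsf1b, a receptor for TNF, 12.33, 11.51 and 11.51 in memory and 9.12, 7.92 and 8.39 in follicular cells (change 3.31 ± 0.45), and the adaptor Traf1 changed by 2.53 ± 0.20. Follicular cells had been depleted of CD95, the product of Fas, before sorting, and the part of this step in the difference was not tested. The other 7 changed by -0.95 to 0.42, and 1 of them fell without memory replicate 3. The share of rises in this list was 30%.

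Receptors that guide B cells within lymphoid tissue changed in 9 of 16 genes, 7 higher (43.8%) and 2 lower (12.5%, median change 1.03). Ackr2, an atypical receptor that clears inflammatory chemokines without signalling, read 12.11, 12.08 and 12.11 in memory and 2.47, 3.36 and 3.85 in follicular cells (change 8.87 ± 0.27). Its mean was 12.67 in marginal zone cells and 2.47 in stimulated follicular cells, so memory and marginal zone cells shared the high level, although 2 other bright probe sets gave changes of 1.05 to 5.64. Ackr3, which takes up CXCL12, read 6.55, 9.95 and 9.36 in memory and 2.15 on each array in follicular cells (change at least 6.16 (fitted 6.47 ± 0.50)). It was at the floor of 2.15 in day 7 memory cells and at a mean of 11.54 in marginal zone cells. Receptors for sphingosine 1-phosphate, a lipid that draws B cells toward blood and the marginal zone, moved apart. S1pr3 read 12.36, 12.63 and 12.09 in memory and 7.95, 8.59 and 8.22 in follicular cells (change 4.11 ± 0.31) and S1pr2, which holds cells in germinal centers, 8.94, 8.98 and 6.54 in memory and 3.12, 3.11 and 3.27 in follicular cells (change 4.99 ± 0.91), whereas S1pr4 read 10.30, 9.43 and 10.20 in memory and 12.41, 12.28 and 11.96 in follicular cells (change -2.24 ± 0.33). S1pr1 read 8.74, 9.10 and 9.51 in memory and 10.42, 10.71 and 10.22 in follicular cells (change -1.33 ± 0.57, adjusted p = 0.102) and did not pass. Cxcr5, the receptor for the follicle, changed by 1.05 ± 0.26, a call that ended without follicular replicate 3 or memory replicate 1. Gpr183, the oxysterol receptor EBI2, also rose, and the cannabinoid receptor Cnr2 changed by -1.36 ± 0.31. Ccr7 read 14.33, 14.35 and 14.12 in memory and 12.59, 12.72 and 12.63 in follicular cells without overlap, but its change of 1.62 ± 0.72 did not pass (adjusted p = 0.118).

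Among 7 chemokines 2 rose (28.6%), both from the follicular floor. Ccl4 read 3.79, 6.58 and 5.86 in memory and 2.15 on each array in follicular cells (change at least 2.95 (fitted 3.26 ± 0.89)) and Ccl5 4.13, 6.17 and 5.83 in memory and 2.15 on each array in follicular cells (change at least 2.91 (fitted 3.23 ± 0.53)). The Ccl4 call ended without memory replicate 2, and its stimulated mean was 11.44, above each memory array. Of 17 integrins and adhesion genes 5 rose (29.4%) and 1 fell (5.88%). Itgae, the CD103 integrin chain, read 5.12, 6.00 and 6.02 in memory and 2.15, 2.15 and 2.17 in follicular cells (change at least 3.25 (fitted 3.56 ± 0.28)), and Cd44, a receptor for hyaluronan, 12.35, 12.29 and 12.43 in memory and 10.96, 10.84 and 10.89 in follicular cells (change 1.46 ± 0.15). Itgb1 changed by 1.90 ± 0.40, with other bright probe sets at 0.17 to 2.42, and Cd9 by 2.18 ± 0.64. The call of Itgb5 (1.19) ended without follicular replicate 1, follicular replicate 2 or memory replicate 1, and that of Itgb3 (-1.89) without any 1 of the 6 arrays. Without follicular replicate 1 the integrin rises numbered 3.

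Cytokine receptors gave 4 rises (16.7%) and 3 falls (12.5%) among 24, against 7.23% and 6.55% of all genes. Bmpr1a, a receptor for bone morphogenetic proteins, read 8.75, 8.56 and 8.22 in memory and 2.34, 2.15 and 2.34 in follicular cells (change at least 6.05 (fitted 6.23 ± 0.36)) and was at a mean of 2.47 at day 7. Il2rb, shared by the receptors for IL-2 and IL-15, read 5.33, 6.32 and 3.52 in memory and 2.15 on each array in follicular cells (change at least 2.59 (fitted 2.91 ± 0.59)), with memory replicate 3 the lowest. Il6st, the gp130 chain of IL-6 family receptors, read 10.47, 9.29 and 9.67 in memory and 6.98, 7.44 and 7.94 in follicular cells (change 2.36 ± 0.38). Both chains of the IL-10 receptor were lower, Il10ra with a change of -1.42 ± 0.32 and Il10rb with -1.13 ± 0.28. Ifnar2, a chain of the receptor for type I interferon, read 6.94, 7.96 and 8.09 in memory and 8.46, 9.05 and 8.57 in follicular cells (change -1.03 ± 0.35), a call that ended without follicular replicate 2, follicular replicate 3 or memory replicate 1.

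Interferon-stimulated genes were called in 1 direction, lower in memory cells. They encode antiviral proteins, are induced by interferon through a complex that holds STAT2 and IRF9, and are set at a tonic level in resting lymphocytes. Of 22 tested, 11 were lower and 0 higher in memory cells (median change -1.37), against 6.55% and 7.23% of all genes. Rtp4, a chaperone of G protein-coupled receptors, read 3.21, 5.17 and 3.23 in memory and 9.05, 9.17 and 9.20 in follicular cells (change -5.27 ± 0.36). Oasl1, which limits translation of Irf7, read 3.07, 3.09 and 3.77 in memory and 6.70, 7.61 and 8.03 in follicular cells (change -4.14 ± 0.34), and Usp18, the protease that removes ISG15 and dampens interferon signalling, 6.27, 6.79 and 6.31 in memory and 8.55, 9.77 and 9.52 in follicular cells (change -2.82 ± 0.62). Mx1, an antiviral GTPase, read 7.21, 7.91 and 8.39 in memory and 9.67, 10.63 and 10.60 in follicular cells (change -2.46 ± 0.42) and Oasl2 3.21, 2.93 and 3.42 in memory and 4.81, 6.67 and 6.43 in follicular cells (change -2.78 ± 0.48). The groups did not overlap in these 5 genes, and follicular replicate 1 was the lowest follicular array in each. Of the tetratricopeptide family that binds viral RNA, Ifit1 read 2.16, 2.16 and 2.17 in memory and 2.85, 5.64 and 4.97 in follicular cells, a change of -2.07 or lower (fitted -2.32 ± 0.45). Ifit3 read 6.53, 8.03 and 8.04 in memory and 9.48, 9.62 and 9.51 in follicular cells (change -2.00 ± 0.48) and Ifit2 7.09, 7.52 and 7.15 in memory and 8.66, 9.44 and 9.09 in follicular cells (change -1.81 ± 0.23). The other 3 falls, Oas2, Stat2 and Rsad2, were changes of -1.5 to -1.36, and the 11 genes not called changed by -1.38 to 1.13. Without follicular replicate 1 the count of falls was 13, without follicular replicate 2 it was 9, and with genes required to be above the 75th percentile it was 6.

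The mean level of the list was 6.63 to 6.95 in day 40 memory, 6.89 to 7.67 in day 7 memory, 7.71 to 8.67 in follicular, 8.91 to 9.30 in marginal zone and 3.85 to 3.96 in stimulated follicular arrays. Against marginal zone cells 15 of the 22 genes were lower and 0 higher in memory cells, where 10.2% and 7.21% of all genes were called. Against stimulated follicular cells 15 were higher and 0 lower, where 23.7% and 19.5% of all genes were called, so the level after stimulation was below that of memory cells. Memory cells thus stood between the stimulated cells and both naive populations.

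**Figure D4:**
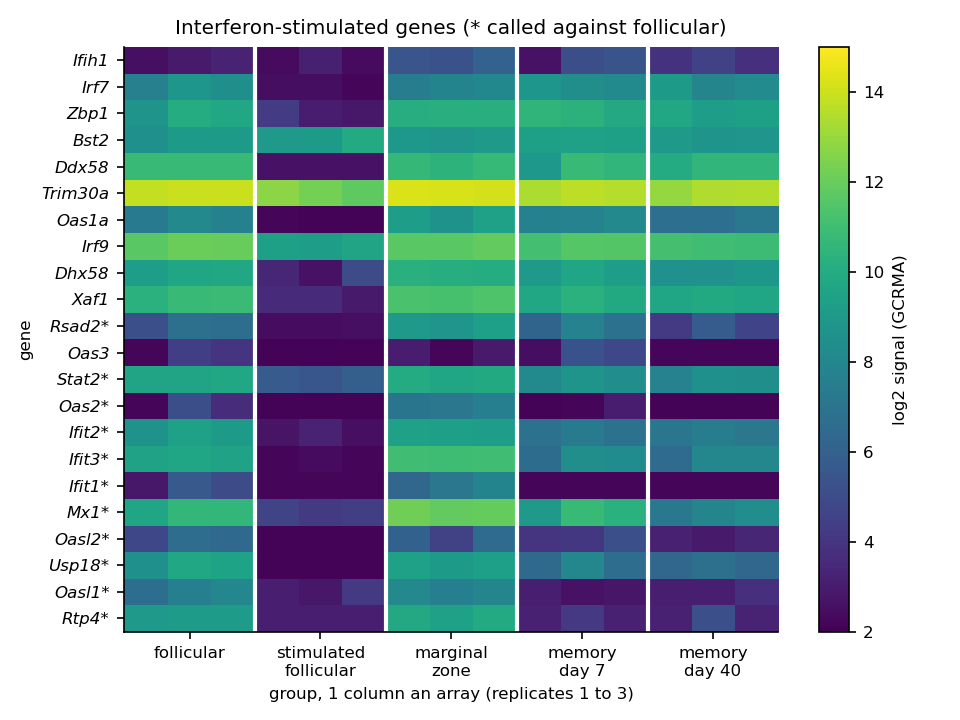
Log2 signal (colour) of 22 interferon-stimulated genes, ordered by their change between day 40 memory and follicular cells, on 15 arrays of 5 groups. An asterisk marks a gene called in that comparison. Memory arrays are darker than follicular and marginal zone arrays for Rtp4, Oasl1 and Usp18, and stimulated follicular arrays are darkest for most genes.

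Interferon response elements, a pair of GAAA repeats with any 2 bases between them, on either strand, were searched in the same way. Of the 11 genes that fell, 7 were in the promoter table, and 4 of them (57.1%), Ifit1, Ifit3, Rsad2 and Stat2, had a match, against 3.77% of tested genes and 3.99% of all 27025 genes in the table. A match was also found for 2 of the 17 early response genes with a promoter there (11.8%). Interferon induction was the basis of the list, so the share describes its genes and not their fall. Shown are the 250 bases before the start of 3 genes that fell, with matches in capitals: Ifit1 on the plus strand at chr19:34640639-34640888, Ifit3 on the plus strand at chr19:34583279-34583528, and Rsad2, which encodes viperin, on the minus strand at chr12:26456453-26456702. Ifit1 has matches 104 to 95 and 85 to 76 bases before the start, Ifit3 156 to 147 and 122 to 113, and Rsad2 120 to 111. All 5 lie on the opposite strand and so read as TTTC repeats here.
Ifit1: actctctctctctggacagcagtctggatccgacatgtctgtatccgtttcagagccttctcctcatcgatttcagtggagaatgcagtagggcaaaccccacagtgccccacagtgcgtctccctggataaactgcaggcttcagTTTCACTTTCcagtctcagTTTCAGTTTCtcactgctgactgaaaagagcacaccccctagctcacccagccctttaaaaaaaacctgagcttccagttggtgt
Ifit3: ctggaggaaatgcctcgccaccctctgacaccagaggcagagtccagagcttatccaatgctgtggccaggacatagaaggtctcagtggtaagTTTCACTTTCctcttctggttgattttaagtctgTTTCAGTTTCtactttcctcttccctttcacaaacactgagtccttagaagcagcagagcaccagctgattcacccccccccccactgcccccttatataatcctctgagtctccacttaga
Rsad2: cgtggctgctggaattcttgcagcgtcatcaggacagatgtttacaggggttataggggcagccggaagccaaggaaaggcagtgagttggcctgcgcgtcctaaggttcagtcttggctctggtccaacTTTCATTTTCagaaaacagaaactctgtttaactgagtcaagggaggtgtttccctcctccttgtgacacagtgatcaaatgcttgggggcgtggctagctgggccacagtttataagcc

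Toll-like receptors sense microbial products in naive and memory B cells alike. Of 17 genes of the pathway 1 rose (5.88%) and 2 fell (11.8%), near the 7.23% and 6.55% of all genes. Ly96, the MD-2 partner of TLR4, read 9.52, 10.53 and 9.69 in memory and 8.07, 8.76 and 8.00 in follicular cells (change 1.64 ± 0.30), whereas Tlr2, the receptor for bacterial lipoproteins, read 2.60, 3.94 and 3.27 in memory and 6.46, 7.55 and 7.00 in follicular cells (change -3.73 ± 0.46). The adaptor Tirap changed by -1.46 ± 0.21, and its other bright probe set by -0.84. Tlr2 had a mean of 5.07 at day 7.

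Genes of the germinal center program and of mitosis were called in 1 direction, higher, with memory replicate 3 the lowest of its group in most. The germinal center is where activated B cells divide and mutate their antibody genes, and the sort took PNA- cells to leave its cells out. Of 19 germinal center genes 10 rose (52.6%) and 0 fell (median change 3.0, 8 to 11 rises with 1 array left out). The rise of Gpr183, 1 of the 10, went away from the level of germinal center cells. Its mean was 11.62 in follicular and 12.63 in memory cells, but 7.67 and 6.48 in the germinal center arrays of day 7 and day 40. Plxnb2, a semaphorin receptor, read 9.73, 9.63 and 9.73 in memory and 2.55, 4.67 and 5.05 in follicular cells (change 5.61 ± 0.73), and Basp1, a membrane-associated protein, 13.13, 13.45 and 13.21 in memory and 8.84, 7.40 and 9.04 in follicular cells (change 4.84 ± 0.44). Both were higher on each memory array than on any follicular array, and the DNA glycosylase Neil1 rose as well. Rgs13, a regulator of chemokine receptor signalling, read 10.35, 10.59 and 8.44 in memory and 3.84, 5.14 and 4.96 in follicular cells (change 5.15 ± 0.89), and Hmmr, a mitotic spindle protein, 7.05, 7.67 and 4.05 in memory and 2.28, 2.21 and 2.50 in follicular cells (change 3.93 ± 0.93, other bright probe sets 0.90 to 1.54). Tnfrsf21, death receptor 6, read 5.08, 9.94 and 7.82 in memory and 3.51, 4.09 and 5.07 in follicular cells (change 3.39 ± 0.79). Replicates of the memory group spread more widely in these last genes than in Plxnb2 and Basp1. The other 9 genes of the list changed by -0.70 to 3.35 and were not called. From the highest change to the lowest they were Gcsam, Mef2b, Mybl1, Efnb1, Cd83, Lmo2, Gcnt3, Bcl7a and Bcl6. Bcl6 read 13.05, 13.04 and 12.66 in memory and 13.75, 13.54 and 13.56 in follicular cells, lower on each memory array.

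Of 23 mitosis genes 17 rose (73.9%) and 0 fell (median change 4.01), and 11 rose when probe sets with cross-hybridising names were left out. Ube2c, of the ubiquitin ligase that ends mitosis, read 8.91, 9.44 and 7.70 in memory and 2.84, 3.17 and 3.52 in follicular cells (change 5.51 ± 0.45), and Nusap1, a spindle protein, 9.68, 10.18 and 8.71 in memory and 2.91, 4.47 and 5.15 in follicular cells (change 5.35 ± 0.62). Kif23, a motor of cytokinesis, read 8.58, 8.68 and 8.15 in memory and 3.13, 3.32 and 3.52 in follicular cells (change 5.15 ± 0.45), and Mki67, the marker Ki-67, 11.88, 12.44 and 11.25 in memory and 8.47, 6.84 and 6.42 in follicular cells (change 4.61 ± 0.50). Cdk1, the kinase that drives entry into mitosis, read 8.83, 9.35 and 7.42 in memory and 3.50, 3.81 and 3.42 in follicular cells (change 4.96 ± 0.67). The checkpoint kinase Bub1 spread widely, at 7.23, 7.97 and 4.37 in memory and 2.43, 2.32 and 2.26 in follicular cells (change at least 4.06 (fitted 4.19 ± 0.88)). Prc1 rose by 4.71 and Top2a by 4.35, while another bright Top2a probe set changed by 0.96. The other 9 rises were 1.72 to 4.15, and the count was 13 to 18 with 1 array left out. Marginal zone cells overlapped memory cells: 0 of the 23 genes were higher and 0 lower in memory cells against them, the median difference was 0.03, and the mean level of the list was 7.14 to 7.35 there against 6.35 to 8.11 in day 40 memory, 3.76 to 4.19 in follicular and 3.65 to 3.84 in stimulated follicular cells. A call needs an adjusted p under 0.05, so this does not show that the levels were equal. Of all genes 7.21% were higher and 10.2% lower against marginal zone cells. At day 7 the level was 10.76 in replicate 1 and 7.51 and 8.14 in the others. Against day 7, 6 mitosis genes were lower at day 40 and 0 higher, and 1 was lower without that replicate. Of all genes 2.28% were lower and 2.74% higher against day 7.

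**Figure D5:**
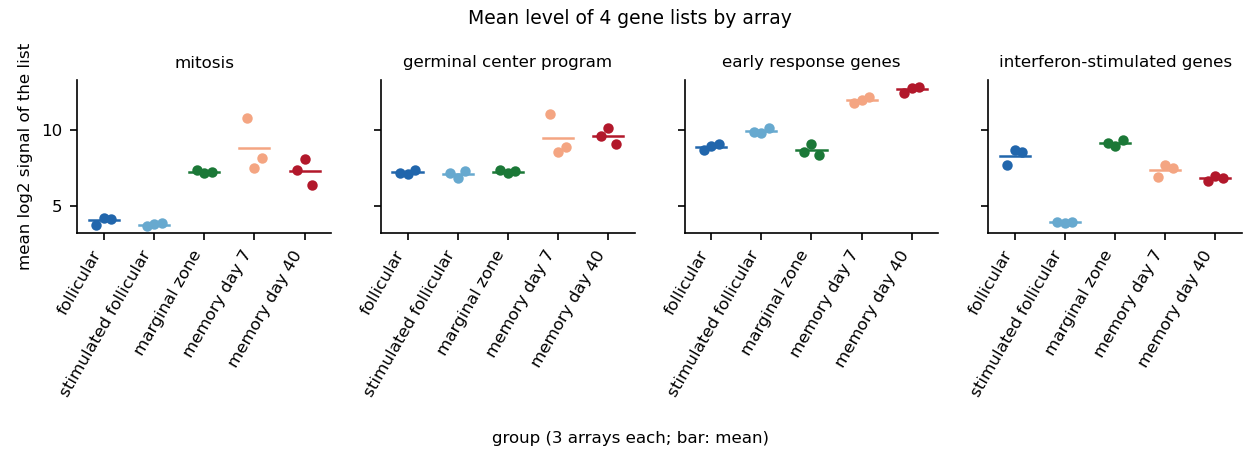
Mean log2 signal (vertical axis) of 4 gene lists on each array (points, 3 a group) of 5 groups, with the group mean as a bar. In mitosis, day 40 memory cells (6.35 to 8.11) overlap marginal zone cells (7.14 to 7.35) and lie above follicular cells (3.76 to 4.19), and replicate 1 of day 7 stands apart at 10.76.

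DNA replication genes moved less than mitosis genes: 3 of 25 rose (12%, against 7.23% of all genes) and 0 fell (median change 0.40). Tk1, thymidine kinase, read 11.27, 11.34 and 11.22 in memory and 9.37, 9.77 and 9.88 in follicular cells (change 1.60 ± 0.20), and Rrm2, of ribonucleotide reductase, 12.35, 12.83 and 11.86 in memory and 10.89, 10.42 and 10.81 in follicular cells (change 1.64 ± 0.37). Cdc6, a loader of the replicative helicase, changed by 3.34 ± 1.0, a call that ended without follicular replicate 3, memory replicate 1 or memory replicate 2. Of 17 cyclins, E2F factors and inhibitors 3 rose (17.6%). Cdkn1a, the p21 inhibitor, read 9.32, 5.53 and 7.42 in memory and 2.67, 2.43 and 2.65 in follicular cells (change 4.84 ± 0.73) and had a stimulated mean of 10.41. E2f1 read 6.73, 7.37 and 6.63 in memory and 2.46, 4.38 and 4.51 in follicular cells (change 3.13 ± 0.58), and Ccnd2 changed by 1.06 ± 0.31, a call that ended without follicular replicate 1 or memory replicate 1. The list had 0 falls, but 2 without follicular replicate 1 and 1 without memory replicate 1.

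The plasma cell program split, with 6 of 20 genes higher (30%) and 2 lower (10%). Beside Tent5c and Slpi, Jchain, the chain that joins IgM and IgA, read 13.22, 13.71 and 12.08 in memory and 7.73, 5.48 and 8.75 in follicular cells (change 5.68 ± 0.64). Edem1, of protein quality control in the endoplasmic reticulum, read 11.55, 11.86 and 11.62 in memory and 9.27, 10.21 and 10.06 in follicular cells (change 1.83 ± 0.21), Derl3 changed by 1.47 ± 0.34 and the elongation factor Ell2 by 1.35 ± 0.17. Sdc1, the plasma cell surface marker CD138, instead read 7.51, 7.53 and 5.23 in memory and 9.58, 10.33 and 10.22 in follicular cells (change -3.29 ± 0.64), and the chaperone Fkbp11 3.72, 2.45 and 2.76 in memory and 5.69, 5.84 and 5.25 in follicular cells (change -2.62 ± 0.26). The Fkbp11 call ended with the mean of its probe sets. Cells with CD138 had been removed from the follicular sample, which nevertheless had the higher Sdc1 signal on each array.

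Modulators of G protein signalling, which set how long chemokine and other receptors signal, gave 6 rises (40%) and 1 fall (6.67%) among 15 genes. Beside Rgs1 and Rgs13, Rgs2 read 13.59, 13.46 and 13.46 in memory and 10.59, 11.50 and 11.21 in follicular cells (change 2.40 ± 0.25) and Rgs10 10.00, 11.05 and 10.07 in memory and 5.62, 6.62 and 6.56 in follicular cells (change 4.11 ± 0.36). The receptor kinase Grk5 read 9.25, 8.82 and 8.85 in memory and 4.88, 5.68 and 5.60 in follicular cells (change 3.59 ± 0.50). Gnaz, an inhibitory G protein alpha subunit, read 7.66, 7.58 and 7.30 in memory and 2.18, 2.15 and 2.15 in follicular cells (change at least 5.05 (fitted 5.35 ± 0.18)), with a day 7 mean of 2.62. Rgs18 went the other way, at 3.09, 4.01 and 3.27 in memory and 7.81, 8.32 and 7.64 in follicular cells (change -4.47 ± 0.59, other bright probe set -4.30). Its mean was 9.25 in marginal zone cells.

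Cyclic nucleotide phosphodiesterases break down cAMP and cGMP. Of 12 tested 3 rose (25%) and 2 fell (16.7%). Pde2a, which cGMP activates to hydrolyse cAMP, read 4.84, 5.60 and 5.77 in memory and 10.92, 11.12 and 10.93 in follicular cells (change -5.59 ± 0.44), and its other bright probe set changed by -3.89. It was as low in marginal zone cells (mean 3.60) and in day 7 memory cells (4.09). Pde8b read 2.49, 2.36 and 2.54 in memory and 5.83, 6.60 and 5.88 in follicular cells (change -3.64 ± 0.26), with another bright probe set at 0.02. Pde4d changed by 1.64 ± 0.43, Pde8a by 1.54 ± 0.40 and Pde3b by 1.28 ± 0.20. The Pde4d call ended with the mean of its probe sets.

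Subunits of PI3K gamma, the form of the lipid kinase that G protein-coupled receptors activate, changed in opposite directions. Pik3r6, its p84 regulatory subunit, read 9.88, 10.16 and 10.03 in memory and 2.15 on each array in follicular cells, a change of at least 7.56 (fitted 7.87 ± 0.23). Its other bright probe set changed by 6.46, and it was at the floor in stimulated and marginal zone cells. Pik3cg, the catalytic p110 gamma subunit, read 10.89, 10.82 and 10.99 in memory and 12.51, 12.22 and 12.44 in follicular cells (change -1.49 ± 0.31). Pik3r5, the other regulatory subunit p101, read 11.31, 10.72 and 11.05 in memory and 9.73, 9.51 and 9.76 in follicular cells (change 1.36 ± 0.46, adjusted p = 0.0388), a call that ended when any of the 6 arrays was left out. The PI3K and FoxO list had 2 rises (10%) and 1 fall (5%) among 20 genes, near the 7.23% and 6.55% of all genes. The other 17 genes of the list changed by -1.46 to 0.88 and were not called, although the list had 2 falls without follicular replicate 2, memory replicate 1 or memory replicate 3.

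Of 9 genes of adenosine and extracellular ATP 3 rose (33.3%) and 0 fell. CD73, described above, converts AMP to adenosine, and Ada, adenosine deaminase, breaks adenosine down. Ada read 9.44, 8.15 and 7.41 in memory and 3.12, 4.26 and 5.29 in follicular cells (change 4.11 ± 0.77). Adk, adenosine kinase, read 11.16, 11.05 and 10.76 in memory and 9.35, 9.63 and 9.88 in follicular cells (change 1.37 ± 0.26), with other bright probe sets at 0.61 to 2.43. The third rise was that of Nt5e, and the other 6 genes were not called.

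Of 20 factors of B cell identity 1 rose (5%) and 2 fell (10%), near the 7.23% and 6.55% of all genes. Id2, an inhibitor of E proteins, read 11.70, 12.19 and 12.09 in memory and 6.70, 7.81 and 7.33 in follicular cells (change 4.71 ± 0.45), whereas its relative Id3 read 9.55, 9.39 and 10.91 in memory and 12.05, 12.06 and 11.97 in follicular cells (change -2.08 ± 0.71). The Id3 call ended without any 1 of 5 arrays, and held without memory replicate 3, its highest memory array. Pax5, the B lineage commitment factor, read 4.37, 4.11 and 4.70 in memory and 5.95, 6.62 and 6.47 in follicular cells (change -1.95 ± 0.50), and the call ended with the mean of its probe sets. The Id2 call was lost when probe sets with cross-hybridising names were left out, which left a change of 1.11 and 0 rises. The other 17 changed by -0.86 to 0.50. Among 21 Kruppel-like and quiescence factors 3 rose and 1 fell: Klf4, an antiproliferative factor in B cells, read 12.88, 12.76 and 13.36 in memory and 10.65, 10.47 and 11.02 in follicular cells (change 2.29 ± 0.49), Klf6 rose by 1.15, Btg2 was described above among early response genes, and Slfn2, a guard of lymphocyte quiescence in mice, read 9.39, 10.08 and 10.58 in memory and 12.28, 12.77 and 12.94 in follicular cells (change -2.65 ± 0.37). Klf2, a factor of B cell recirculation, changed by 0.47 ± 0.57 (adjusted p = 0.644). In this list 14.3% rose and 4.76% fell, against 7.23% and 6.55% of all genes. Among 11 BCL2 family genes 1 rose and 1 fell (9.09% each), near the shares of all genes. The proapoptotic Pmaip1, or Noxa, read 11.88, 12.44 and 12.99 in memory and 9.94, 9.61 and 9.70 in follicular cells (change 2.69 ± 0.35), the call of Bcl2l2 (-1.13) ended without any 1 of 4 arrays, and Bcl2 changed by 0.12 ± 0.31. The Notch modifier Lfng read 9.63, 8.61 and 8.92 in memory and 10.99, 11.38 and 11.29 in follicular cells (change -2.17 ± 0.46), the 1 fall (8.33%) among 12 Notch genes with 0 rises. Of 22 epigenetic enzymes the demethylase Kdm6b (change 1.15 ± 0.16) and the methyltransferase Ezh2 (change 1.06 ± 0.18) rose, and the Ezh2 call ended without follicular replicate 1 or memory replicate 2. The share of enzymes that rose, 9.09%, was near the 7.23% of all genes. The enzymes had 0 falls, and 1 without memory replicate 1.

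Lists of antigen receptor signalling, presentation, metabolism and ribosome genes had 0 or 1 call each. With 7.23% and 6.55% of all genes called, lists this short hold few calls at the general rate, so the counts do not set them apart. Rises were 3.70% of antigen receptor signalling, 5.88% of glycolysis and 5.26% of cholesterol genes. Of 27 genes of antigen receptor signalling 1, the adaptor Pik3ap1, rose (change 1.09 ± 0.30) and 0 fell, and that call ended without follicular replicate 1 or memory replicate 1. The other 26 changed by -0.90 to 0.69, the median was -0.05, and without memory replicate 2 the count of falls was 1. Of 13 class II presentation genes 0 rose and 0 fell (-0.46 to 0.05). The same counts held for 23 respiratory chain genes (-0.66 to 0.16) and 21 ribosome biogenesis genes (-0.96 to 0.52), of which 1 fell without follicular replicate 1, follicular replicate 2 or memory replicate 3. A change of less than 1 cannot be a call, so small shifts are not excluded by these counts. Against stimulated follicular cells 17 of the ribosome biogenesis genes were lower in memory cells and 0 higher (median difference -1.84). Of all genes 19.5% were lower and 23.7% higher in that comparison. Of 17 glycolysis genes Hk2, the inducible hexokinase, rose (10.16, 10.76 and 10.75 in memory and 7.51, 8.10 and 8.35 in follicular cells; change 2.57 ± 0.20), and of 19 cholesterol genes the sterol demethylase Cyp51 (12.55, 11.87 and 11.84 in memory and 9.86, 9.91 and 10.09 in follicular cells; change 2.13 ± 0.24), with 0 falls in either list.

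S100 calcium-binding proteins and annexins gave 4 rises (30.8%) among 13 genes, and 2 without any 1 of follicular replicates 1, 2 and 3 and memory replicate 3. Anxa2, an annexin at the plasma membrane, read 12.47, 12.10 and 12.10 in memory and 5.95, 6.92 and 7.40 in follicular cells (change 5.47 ± 0.49). S100a4 read 5.85, 5.55 and 5.32 in memory and 2.15 on each array in follicular cells (change at least 3.11 (fitted 3.42 ± 0.50)), with a day 7 mean of 10.89. S100a6 (2.17) lost its call without any 1 of 5 arrays. S100a9, a subunit of the neutrophil protein calprotectin, read 6.78, 12.51 and 11.31 in memory and 2.15 on each array in follicular cells (change at least 7.74 (fitted 8.05 ± 2.80)). Memory replicate 1 was far below the other memory arrays, and S100a9 lost its call without any 1 of 5 arrays. Of 16 tested myeloid markers 4 rose, S100a9, Lyz2 (9.96, 11.31 and 8.16 in memory and 3.16, 3.21 and 4.06 in follicular cells), Cd68 (8.89, 8.01 and 8.01 in memory and 3.93, 6.54 and 6.47 in follicular cells) and Mpeg1 (10.37, 10.93 and 10.63 in memory and 7.23, 8.61 and 8.37 in follicular cells), and 0 fell. The mean level of the list was 4.11 to 5.07 in memory and 2.80 to 3.20 in follicular arrays. The other 12 tested myeloid markers were not called and changed by -0.38 to 5.38, with S100a8 the highest. S100a8 is also on the S100 and annexin list, whose 9 uncalled genes changed by -2.37 to 5.38. Mpo, Elane, Itgam, C1qa and C1qc were at the floor of 2.15 on all 6 arrays, and Cd14, Fcgr3 and Csf1r did not exceed 3.46. The part of myeloid cells in the rises was not tested.

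Markers of other cell types were measured as a check of the sorts. Of 9 T cell markers and 4 NK cell markers 0 rose and 0 fell, and the mean level of the T cell list was 2.39 to 3.0 in memory and 2.24 to 2.49 in follicular arrays. Without memory replicate 3 the count of T cell rises was 1. Memory replicate 2 had 4.18 for Cd3e, 3.91 for Cd3d and 6.81 for Bcl11b. Of 5 dendritic cell markers Flt3, a growth factor receptor of progenitors that B cell subsets also use, read 8.41, 8.63 and 8.93 in memory and 2.91, 4.45 and 4.24 in follicular cells (change 4.79 ± 0.43). Of 17 marginal zone markers S1pr3, Cd9 and Myof rose, Myof with 5.89, 6.53 and 5.99 in memory and 3.55, 3.52 and 3.56 in follicular cells (change 2.59 ± 0.26), and it was lower in memory than in marginal zone cells (difference -4.86 ± 0.26). The Cd9 call ended without follicular replicate 1, memory replicate 2 or memory replicate 3. Against marginal zone cells 11 of the 17 were lower and 0 higher, where 10.2% and 7.21% of all genes were called.

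Genes of the sort markers were checked against the labels. Ptprc, which encodes B220, read 14.52, 14.24 and 14.07 in memory and 14.26, 14.23 and 14.15 in follicular cells and did not differ by the criteria used. Fcer2a, the CD23 of the follicular sort, read 12.19, 11.73 and 12.17 in memory and 12.92, 13.08 and 12.90 in follicular cells (change -0.94 ± 0.19, under the minimum of 1), so it was lower on each memory array. Cr2, or CD21, which is also on the marginal zone list, read 13.09, 13.13 and 12.93 in memory and 13.21, 13.08 and 13.01 in follicular cells (change -0.05 ± 0.29) and overlapped. Of 8 follicular markers Nt5e and Cxcr5 rose and 1, Cd55 (-1.01), fell. The Cd55 call ended without any 1 of follicular replicates 1, 2 and 3 and memory replicates 2 and 3. Cd93, the antigen AA4.1 by whose absence follicular cells were sorted, read 4.44, 4.47 and 4.19 in memory and 7.79, 8.86 and 8.84 in follicular cells (change -4.13 ± 0.62). The group sorted as AA4.1- thus had more of this messenger RNA than memory cells, at 4.27 in marginal zone cells. Cd38, Ighg1 and Ighd were not analysed here, so CD38, the IgG1 switch and the removal of IgD were not checked. For Ighm, whose product IgM was removed from memory cells, 11 probe sets disagreed: 3 fell by at least 1, 6 rose by at least 1 and 2 did neither. The brightest read 11.58, 11.99 and 11.23 in memory and 14.23, 14.31 and 14.34 in follicular cells. Those that rose stood at 2.15 to 8.23 in follicular and 3.57 to 15.18 in memory arrays, so no direction is given for Ighm.

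Day 40 memory cells differed from day 7 memory cells in 307 genes that were higher and 256 lower. Mapk12, a p38 kinase, had a day 40 change against follicular cells of 1.46 ± 0.26, a call that ended with the mean of its probe sets. It stood at a mean of 2.46 at day 7 against 9.44 at day 40. Tox2, an HMG box factor, read 9.77, 9.84 and 7.08 in memory and 2.26, 2.25 and 2.25 in follicular cells and 3.41 at day 7, and Osbpl3, a lipid transfer protein, 7.89, 8.55 and 8.24 in memory and 2.55 on each array in follicular cells and 2.89. These 3 were high at day 40 and low at day 7. Ptgr1, a prostaglandin reductase, and Pcp4, a calmodulin regulator, were lower at day 40, with means of 3.89 against 9.24 and 5.38 against 9.42. Their follicular means were 2.37 and 8.37.

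Against stimulated follicular cells 2661 genes were higher and 2187 lower in day 40 memory cells, and against marginal zone cells 808 and 1145. Among genes that rose against resting follicular cells, Fscn1, an actin bundler, read 14.13, 13.73 and 13.76 in memory and 7.95, 6.49 and 6.21 in follicular cells and had a stimulated mean of 3.98, with Anxa2 at 2.30. Genes that were higher after stimulation than in memory cells included Txnrd3, a thioredoxin reductase (mean 10.75 against 2.57), Rragd, a GTPase that signals amino acids to mTORC1 (9.67 against 2.62), and Jrk (8.65 against 2.23). Among genes that fell against follicular cells, the marginal zone mean was 9.96 for Hdgfl3, against 2.21 in memory cells, and 10.05 for Mcoln3, an endolysosomal channel, against 3.65. For Dglucy, a glutamate metabolism enzyme, it was 10.03 against 4.12.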

How the data were processed

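Total RNA of sorted cells, extracted with TRIZOL and amplified and labelled with Ovation V2 kits per the labels' protocols, was hybridised to Affymetrix mouse genome arrays. The deposited values are log2 signals per probe set that the authors made with GCRMA, per the submitters' processing notes, which give no version. They were used as deposited. The labels give no batch or scan date.

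Of 45101 probe sets 34945 had 1 gene symbol in the platform annotation, 932 several and 9160 none, and 64 were controls. Where a gene had several probe sets, the brightest on average across the 24 arrays stood for it, which left 18193 genes. A gene was tested if its signal exceeded the array median on at least 3 arrays (11208 genes). limma (version 3.58.1, R 4.3.3) fitted 1 mean for each of 8 groups over 24 arrays, with moderated variances, and p-values were adjusted over all tested genes by Benjamini-Hochberg. Changes are ± SE from this fit, which pools the spread of all groups. Day 40 memory cells were compared with 4 groups.

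The groups, the 42 gene lists (704 genes, 646 with a probe set, 601 tested) and the named genes were chosen with earlier results of these data known. Named genes were the 15 largest rises and falls without overlap, up to 8 list members per direction, and the 6 largest differences per direction in each other comparison. Other bright probe sets of a gene are those above background in either group. Setting genes at background to their bounds moved the median of 8 lists, by at most 0.31 (chemokines). Promoter sequences are from RefSeq (32851 promoters of 27025 genes). The fit was tested on simulated data. Figures used Python 3.11.15 and matplotlib 3.10.9.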

Additional observations from a re-analysis of the deposited data

Results flagged for a closer look

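Changes against the same follicular arrays were compared between days as the difference of the day 40 and day 7 arrays (limma, adjusted p under 0.05 and at least 1 in size). Of all genes tested 2.74% were higher and 2.28% lower at day 40 than at day 7. Among the 170 named genes called against follicular cells, 36 differed. Some of the 36 were named because they ranked among the largest such differences, so their number is no independent count. In 4 of them the changes had opposite signs: Mapk12 (1.46 at day 40 and -5.52 at day 7, difference 6.98), Fkbp11 (-2.62 at day 40 and 1.80 at day 7, difference -4.42), Pcp4 (-2.98 at day 40 and 1.06 at day 7, difference -4.04) and Pde4d (1.64 at day 40 and -0.08 at day 7, difference 1.72). The day 7 change of Pde4d was close to 0. With the mean of probe sets the day 40 calls of Mapk12, Fkbp11 and Pde4d ended, so these depend on the probe set. The day 7 changes were not themselves tested against follicular cells.

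Among genes more raised or less lowered at day 40 were Ackr3 (6.47 at day 40 and 0.00 at day 7, difference 6.47), Bmpr1a (6.23 at day 40 and 0.19 at day 7, difference 6.04), Gnaz (5.35 at day 40 and 0.46 at day 7, difference 4.89), Cdkn1a (4.84 at day 40 and 2.45 at day 7, difference 2.39) and Ccl5 (3.23 at day 40 and 0.32 at day 7, difference 2.91). The differences of the others were those of Crip3 (2.02), Tox2 (5.48), Osbpl3 (5.34), Dnajb1 (1.24), Nfkbid (1.33), Il9r (1.79), Itgae (1.39), Icosl (1.89), Il10rb (1.08) and Myof (2.05).

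Among genes less raised or more lowered at day 40 were S100a4 (3.42 at day 40 and 8.74 at day 7, difference -5.32), Gpat3 (-6.30 at day 40 and -1.73 at day 7, difference -4.57), Cldn10 (-5.52 at day 40 and -1.42 at day 7, difference -4.10), Zbtb32 (3.73 at day 40 and 7.58 at day 7, difference -3.85), Cxcr3 (5.74 at day 40 and 8.18 at day 7, difference -2.44) and Mx1 (-2.46 at day 40 and -0.27 at day 7, difference -2.19). The differences of the others were those of Slpi (-1.95), Eps8 (-2.51), Diras2 (-2.70), Ptgr1 (-5.35), Ccdc73 (-1.90), S1pr4 (-1.25), Tlr2 (-1.80), Ube2c (-2.21), S100a6 (-2.55), Pik3r6 (-1.52) and Cd68 (-2.70).

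Replicate 1 of the day 7 memory cells had the highest mitosis and germinal center levels of its group, at list means of 10.76 and 11.02. Without it, an alternative added after the data were seen, 33 of the 36 differences passed and 3 did not: Ccdc73 (-1.66), Dnajb1 (1.09) and Il10rb (0.86).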

How the results depend on the processing

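Of the 144 alternative values of the 8 counts of higher and lower genes, 129 were within 1.5 times the reported count and 15 were not. With no minimum change the counts became 1230 higher and 1387 lower than follicular, 540 and 601 against day 7, 3305 lower than stimulated follicular, and 1408 higher and 2080 lower than marginal zone cells. With genes required to be above the 75th percentile, which tests fewer genes, 429 were lower than follicular, 187 higher than day 7, 1329 lower than stimulated follicular and 618 lower than marginal zone cells. Against day 7, array weights gave 505 and 403, and a fit of only the compared groups 105 and 94; the cause was not tested. Leaving out 1 array at a time gave 708 to 797 higher and 578 to 784 lower than follicular, 243 to 325 and 199 to 276 against day 7, 2452 to 2825 and 2038 to 2205 against stimulated follicular, and 730 to 788 and 989 to 1162 against marginal zone cells. Quantile normalization, a common median and an offset of 16 moved the share of rises among calls from 52.5% to 52.7%, 52.9% and 53.9%. Of 170 named called genes 121 kept their call under all alternatives and 49 lost it in at least 1. Of 84 counts of list members called in 1 direction, 52 moved by over 1.5 times, or to or from 0, under at least 1 alternative.

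The sign turned for Ighm alone among named genes, to 5.22 with the mean of its probe sets and 12.49 without probe sets of cross-hybridising names. Same-numbered memory and follicular arrays deviated together in 1 pair (r = 0.182) but not in the others (-0.0361 and -0.191). Differently numbered arrays gave -0.147 to 0.192. So few arrays cannot show whether the numbers pair the samples. With the replicate number as a block, 816 genes were higher and 750 lower than follicular cells. The floor limits what can be seen of genes with low signal, and the share of values at it was about the same in both groups.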
